A study of Mus musculus with 4 samples.

Results

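The genes described here encode the mitochondrial respiratory chain and ATP synthase: the NADH dehydrogenase subunits of complex I (names starting with Nduf), succinate dehydrogenase or complex II (Sdha, Sdhb, Sdhc and Sdhd), the cytochrome bc1 complex or complex III (Uqcr names and Cyc1), cytochrome c (Cycs), cytochrome c oxidase or complex IV (Cox4 to Cox8 names) and ATP synthase or complex V (Atp5 names). They were chosen by symbol alone: every probe set annotated with a single symbol of these names was taken, on all 4 arrays. The rule found 184 probe sets of 92 genes, out of 34945 probe sets of 18193 genes that carry a single symbol. Of these genes, 52 had several probe sets (at most 6) and 40 had 1. Complex I contributed 36 subunits and 8 assembly factors (Ndufaf1 to Ndufaf8, which build the complex but are not part of it), complex II 4 subunits, complex III 9, complex IV 17, complex V 17, and cytochrome c 1. A further 10 probe sets listed such a symbol together with others and were left out by the rule.

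Naive mouse CD4+ T cells, sorted as CD44- CD62L+ from spleen and lymph nodes, were activated through CD3 and CD28 for 3 days and grown in IL-2 (50 U/ml) for 4 more. Th1 cultures received IL-12 (20 ng/ml, then 10 ng/ml) with antibody to IL-4 during activation, and Th2 cultures received IL-4 (10 ng/ml) with antibody to IFN-g during activation. After 7 days the cells were stimulated again through CD3 and CD28 for 2 h with the same cytokine, so every group is a recently reactivated one. There were 4 groups with 1 array each: Th1 cells of genotype C57BL/6J (wild type), Th1 cells of genotype C57BL6-STAT4<tm1> (STAT4KO), Th2 cells of genotype C57BL/6J (wild type), and Th2 cells of genotype B6.129S2©-STAT6<tm1Gru>/J (STAT6KO). STAT4 is the transcription factor through which IL-12 drives Th1 cells, and STAT6 the one through which IL-4 drives Th2 cells. The labels do not say how many mice gave the cells of an array, whether cells were pooled, or whether both wild-type arrays came from the same mice.

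As background, complexes I and II feed electrons from NADH and succinate into ubiquinone, complex III passes them to cytochrome c, and complex IV passes them to oxygen. Complexes I, III and IV pump protons, and ATP synthase uses the returning protons to make ATP. Complex I and complex III hold a catalytic core, which carries the flavin, iron-sulphur and haem groups or the large core proteins, surrounded by many small accessory subunits with structural or stabilising roles. Several catalytic subunits of complexes I, III, IV and V are encoded in mitochondrial DNA, and all genes chosen here are nuclear. Activated T cells are known for raising glycolysis and mitochondrial mass together.

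With 1 array a group there is no replicate spread and no test, so each difference below compares arrays, and no difference between conditions was tested. Values are log2 expression values, each gene is read from 1 probe set, the one of highest average level, and a difference of 1 is a 2-fold difference. A gene was called when it differed by at least 2-fold and its brighter array reached the median of all values, 5.82. Of the 92 genes, 88 reached that level on every array, and 3 reached it on none: Cox7a1, Cox7b2 and Cox8b. The deposited arrays were not fully aligned: their medians were 5.77 on both wild-type arrays, 6.01 for STAT4-deficient Th1 and 5.63 for STAT6-deficient Th2 cells, and their 75th percentiles ran from 7.53 to 8.10, the last in Th2 wild type. Over all genes, the middle difference (the all-gene median below) was 0.13 for STAT4-deficient minus wild-type Th1, -0.30 for STAT6-deficient minus wild-type Th2 and -0.37 for wild-type Th1 minus wild-type Th2, and the members are read against these.

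The 5 measured T cell markers were above the level on every array, with means of 12.01 to 12.34. The mean of 7 myeloid and dendritic markers was 5.77, 5.64, 6.16 and 5.20 in wild-type Th1, STAT4-deficient Th1, wild-type Th2 and STAT6-deficient Th2 cells, an order kept for every run of 4 values below, and 5 of the 7 reached the level on some array. Of the 5 measured B cell markers 3, of the 4 CD8 and NK markers 2 and of the 2 erythroid markers 0 reached the level on any array. The macrophage marker Adgre1 was at 8.26 in Th2 wild type and at most 5.92 elsewhere, and Cd8b1, a CD8 T cell marker, was at 7.41, 6.73, 8.54 and 6.47. Other markers of these lists ran otherwise. Between the wild types, 1 myeloid and dendritic marker was 2-fold or more higher in Th1 and 2 were higher in Th2. Of 2 CD8 and NK markers at the level in that pair, 1 was higher in Th1 and 1 in Th2. RNA integrity, read as the actin control's 3' minus 5' value, was 0.32, 0.66, 0.85 and 2.08, so the Th2 STAT6-deficient array had the largest 3' excess. Stat4 itself read 11.45, 9.20, 8.96 and 9.90, lower in the STAT4-deficient Th1 cells than in wild-type Th1 cells. Stat6 read 11.17, 11.67, 10.93 and 10.92, and because the place of its probes relative to the deletion is not known here, it checks nothing. The part of these marker, integrity and array-level differences in the results below was not tested. In such bulk RNA, fewer cells of a type and less RNA per cell cannot be told apart.

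The nuclear genes of the chain are known to share promoter motifs for NRF1, for ETS factors such as GABP, and for YY1. RefSeq promoter windows (GRCm38.p6) were found for 75 of the 92 genes. The NRF1 letters (GCGCA, any base, GCGC, on either strand) were in 17 of the 75 (22.7%), against 5.19% of all 27025 genes with such a window. The ETS letters (CCGGAAG, either strand) were in 19 (25.3%), against 9.93%, and the YY1 letters (AAGATGG followed by CGGC, either strand) in 4 (5.33%), against 0.755%. The ETS and YY1 letters can share the bases AAG, and each was counted separately. The whole set of windows includes noncoding genes. A match of letters is not a measured binding site. The windows of 2 core genes that were highest in Th2 wild-type cells and of 2 small-subunit genes that were lowest there are printed because these genes carry the main pattern below and all 4 hold the NRF1 letters. Each reads 5' to 3' on the gene's strand, with matches in capitals.
Sdha, chr13:74350191-74350490, minus strand: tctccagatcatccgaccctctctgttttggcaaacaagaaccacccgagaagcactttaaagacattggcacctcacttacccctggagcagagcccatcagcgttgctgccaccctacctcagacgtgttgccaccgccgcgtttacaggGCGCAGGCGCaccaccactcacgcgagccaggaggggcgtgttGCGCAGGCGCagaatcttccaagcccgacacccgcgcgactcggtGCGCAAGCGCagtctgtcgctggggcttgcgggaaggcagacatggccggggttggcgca
Uqcrc1, chr9:108936398-108936697, plus strand: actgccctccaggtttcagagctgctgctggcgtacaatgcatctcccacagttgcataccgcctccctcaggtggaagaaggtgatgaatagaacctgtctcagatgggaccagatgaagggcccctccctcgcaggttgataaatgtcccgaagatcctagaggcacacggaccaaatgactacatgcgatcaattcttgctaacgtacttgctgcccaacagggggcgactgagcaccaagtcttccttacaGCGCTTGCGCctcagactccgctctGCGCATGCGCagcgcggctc
Ndufa5, chr6:24527641-24527940, minus strand: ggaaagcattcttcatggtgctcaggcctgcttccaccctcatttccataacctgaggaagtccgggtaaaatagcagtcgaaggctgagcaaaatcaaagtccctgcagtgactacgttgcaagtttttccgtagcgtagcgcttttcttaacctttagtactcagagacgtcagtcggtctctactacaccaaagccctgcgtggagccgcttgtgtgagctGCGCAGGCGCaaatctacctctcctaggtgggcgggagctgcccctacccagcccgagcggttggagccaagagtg
Atp5k, chr5:108434350-108434649, minus strand, NRF1 letters then the ETS letters on the other strand: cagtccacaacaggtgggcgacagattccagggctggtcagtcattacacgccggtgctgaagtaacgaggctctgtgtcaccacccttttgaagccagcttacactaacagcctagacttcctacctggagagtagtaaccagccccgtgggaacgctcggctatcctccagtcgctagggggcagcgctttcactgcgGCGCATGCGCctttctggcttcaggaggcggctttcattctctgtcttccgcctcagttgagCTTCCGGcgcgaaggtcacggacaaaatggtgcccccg
The Sdha window held the NRF1 letters at 3 places, Uqcrc1 at 2, and Ndufa5 and Atp5k at 1 each. Among core genes of complexes I, II and III, 3 of 10 with a window (30.0%) held the NRF1 letters and 4 of 10 (40.0%) the ETS letters. Among accessory and small membrane subunits the counts were 7 of 46 (15.2%) and 10 of 46 (21.7%). Both letters thus stood in front of some genes of each group, at a higher share in the few core genes. The part of these letters in the levels was not tested.

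In wild-type cells, Th1 and Th2 cultures differed in opposite directions for different parts of the same complexes. Core subunits such as Ndufv1, Sdha, Cyc1 and Uqcrc1 were higher in Th2 cells, and accessory or small membrane subunits such as Atp5k, Atp5mpl, Ndufa6 and Ndufa5 were higher in Th1 cells. Of 89 genes at the level, 19 were called: 10 higher in Th1 and 9 higher in Th2. Over all genes 33.5% were called in this pair, 8.14% higher in Th1 and 25.4% higher in Th2. The members' median difference was 0.04, with a 25th percentile of -0.68 and a 75th of 0.61, against the all-gene median of -0.37. With quantile normalization or cyclic loess the split was 15 higher in Th1 and 2 higher in Th2, and after centring on the hybridization controls it was 4 and 25, so which direction held more calls depends on the scaling. At 1.5-fold, 49 of 89 members passed, against 56.8% of all genes.

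Without STAT6, Th2 cells had higher values for many small subunits, among them Ndufa5, Atp5mpl and Atp5k. No core gene of complexes I, II or III was called by its main probe set, but another of Sdhc passed 2-fold (-1.05). Of 88 genes at the level, 26 were called, 23 higher in STAT6-deficient cells and 3 lower. Over all genes 26.5% were called, 7.01% higher and 19.5% lower. The members' median was 0.22 (25th percentile -0.24, 75th percentile 1.004), against -0.30 over all genes. After centring on the hybridization controls the calls were 13 higher and 6 lower, and no call changed sign under the 4 scalings tried. At 1.5-fold, 47 of 88 members passed, against 48.7% of all genes. Among the called genes 15 had several probe sets at the level, and in 12 of these all lay on the same side of 0. This comparison and the previous one share the Th2 wild-type array.

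Without STAT4, Th1 cells differed little in these genes. Of 89 genes at the level, 1 was called: Ndufb1, an accessory subunit of complex I, at 9.69 in wild-type and 8.65 in STAT4-deficient Th1 cells, 2.05-fold lower. It was under 2-fold with quantile normalization (-0.97) and with hybridization controls (-0.64). Over all genes 11.5% were called, 6.18% higher and 5.34% lower. The members' median was -0.05, and it changed sign between scalings, from -0.29 with median centring to 0.35 with hybridization controls, as did the all-gene median. The SD of the differences over members was 0.38, against 0.70 over all genes, and 74 of 89 members lay within 0.5 of 0, against 61.3% of all genes. At 1.5-fold, 11 of 89 members passed, against 31.8% of all genes. The furthest below 0 after Ndufb1 were Ndufv3 (-0.87), Atp5d (-0.78), Cycs (-0.74), Cox7c (-0.70) and Cox6b2 (-0.64), and the furthest above were Ndufaf2 (0.81), Sdha (0.70), Ndufa12 (0.65), Ndufaf6 (0.60), Uqcr11 (0.56) and Ndufb3 (0.55). None of these 11 reached 2-fold.

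**Figure D1:**
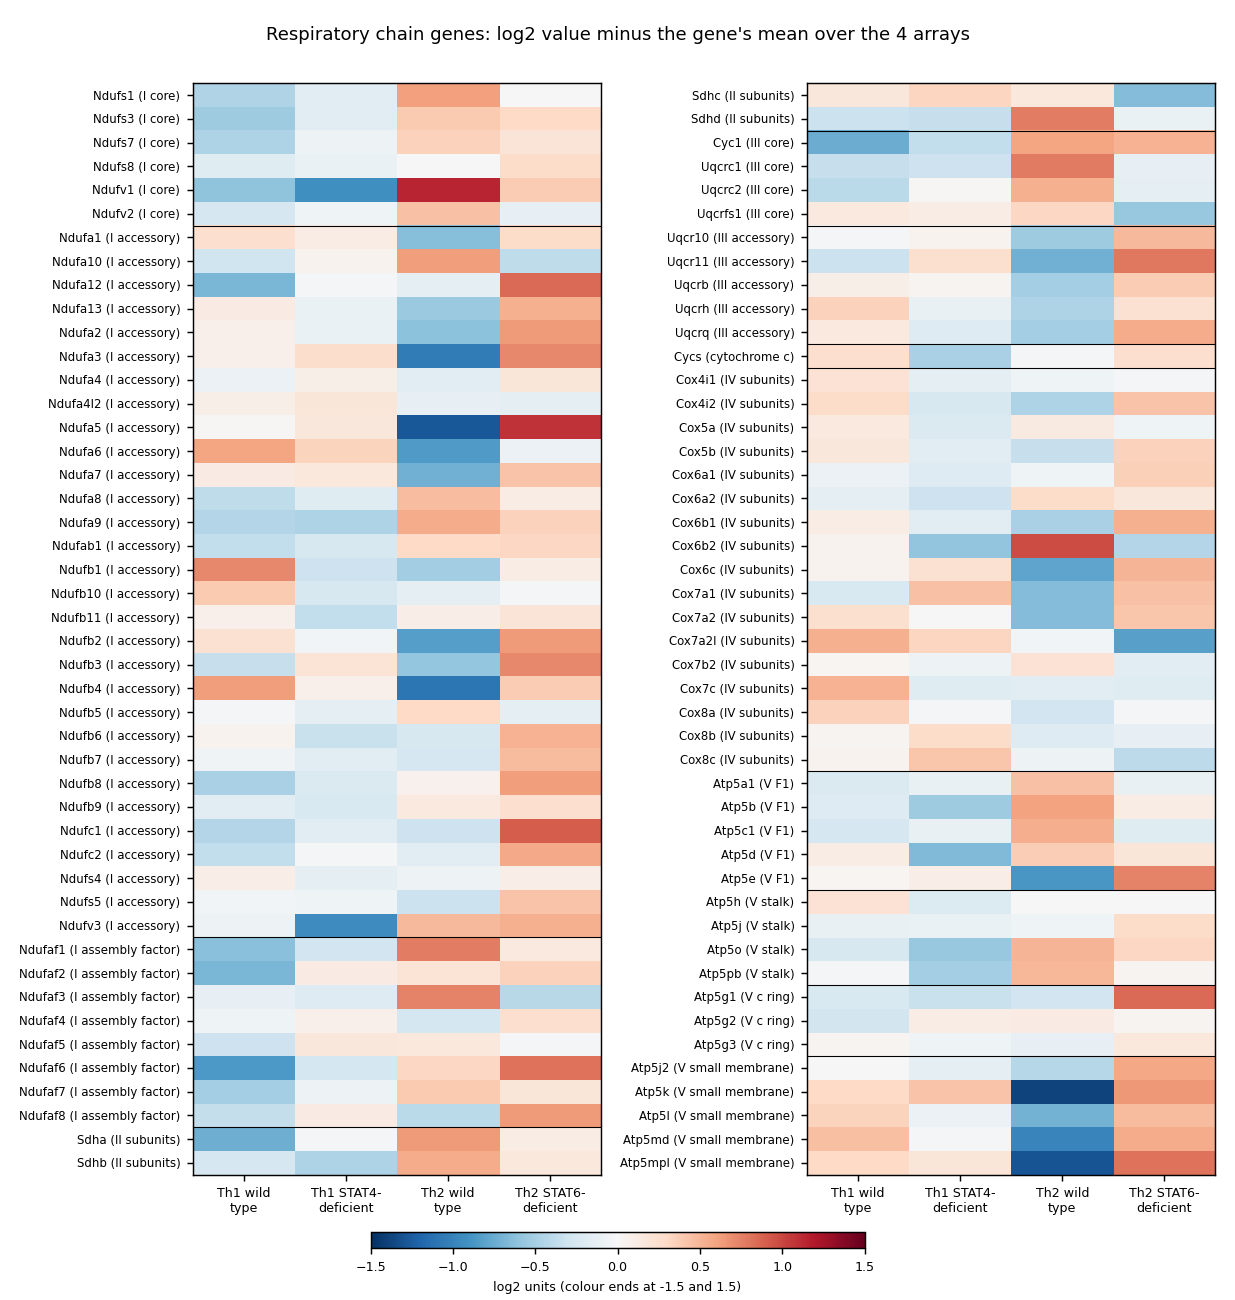
Each cell is the log2 value of a gene's main probe set minus that gene's mean over the 4 arrays, for all 92 genes in the order of complex and role; colours end at -1.5 and 1.5, and black lines separate the roles. The Th2 wild-type column is red for most core genes of complexes I, II and III and blue for most accessory and small membrane subunits, with Atp5k, Atp5mpl and Ndufa5 the deepest blue.

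The grouping into core, accessory and small membrane subunits was made after the values were seen, so its counts describe these arrays and support nothing further. The core group held 14 genes of complexes I, II and III. The other group held 57 accessory subunits of complexes I, III and IV and small membrane subunits of ATP synthase, of which 54 reached the level on some array. It is called the small subunits below for short, though genes were grouped by role and not by size. It holds the large accessory subunits Ndufa9 and Ndufa10, and the core group holds the membrane anchors Sdhc and Sdhd. By their main probe sets, the core genes were highest in Th2 wild type for 12 of 14, and 9 of 14 were lowest in Th1 wild type. The first count depends on the probe set. At the level, another probe set each of Ndufs7, Uqcrc2, Ndufv2 and Sdha was highest in STAT6-deficient Th2 cells, and another of Sdhd in Th1 wild type. Some others of Ndufs8 and Sdhc, not among the 12, were highest in Th2 wild type. The small subunits were lowest in Th2 wild type for 30 of 54 (55.6%) and highest in Th2 STAT6-deficient cells for 36 (66.7%). Over all genes at the level, Th2 wild type was highest for 41.8% and lowest for 18.3%, and Th2 STAT6-deficient highest for 18.7%.

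The core median was -0.93 for wild-type Th1 minus Th2 (13 of 14 below 0, 6 called higher in Th2). For STAT6 loss it was -0.59 (13 of 14 below 0, 0 called by main probe sets). The all-gene medians of these pairs were -0.37 and -0.30, with 7920 of 12111 and 7544 of 11490 genes below 0. Of all genes 25.4% were called higher in Th2 in the first pair, and 19.5% lower in the second. Brighter genes lay lower: with the level minimum raised to 7.76, the 75th percentile of all values, the all-gene medians were -0.60 and -0.35. The core median stayed below 0 under the 4 other scalings, from -1.31 to -0.61 in the first pair and from -0.73 to -0.38 in the second. The small-subunit median was 0.47 in the first pair (39 of 54 above 0) and 0.73 in the second (42 of 53 above 0, 20 called higher and 2 lower). Its range over the scalings was 0.05 to 0.70 and 0.58 to 0.95. Of all genes 4189 of 12111 and 3946 of 11490 lay above 0 in these pairs, and 7.01% were called higher in the second. For STAT4 loss the medians were 0.17 for the core and -0.14 for the small subunits, and both changed sign between scalings.

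The pairs in which the core and small-subunit medians lay furthest apart, as deposited and under the 4 other scalings, both use the Th2 wild-type array. Of the pairs without it, STAT4 loss had medians of opposite sign but closer to 0 (given above). STAT6-deficient Th2 minus wild-type Th1 gave medians of 0.44 for the core and 0.33 for the small subunits. STAT4-deficient Th1 minus STAT6-deficient Th2, in which both culture and genotype differ, gave -0.22 and -0.48, and its core median changed sign, to 0.09 with quantile normalization and 0.06 with cyclic loess, while the small subunits were then at -0.19 and -0.24. Over all members at the level these pairs had medians of 0.31 (70 of 89 above 0) and -0.43 (73 of 88 below 0), with 0.05 and 0.02 over all genes. Whether a property of that single array or of wild-type Th2 cells accounts for the wider separation in its pairs cannot be told apart with 1 array.

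**Figure D2:**
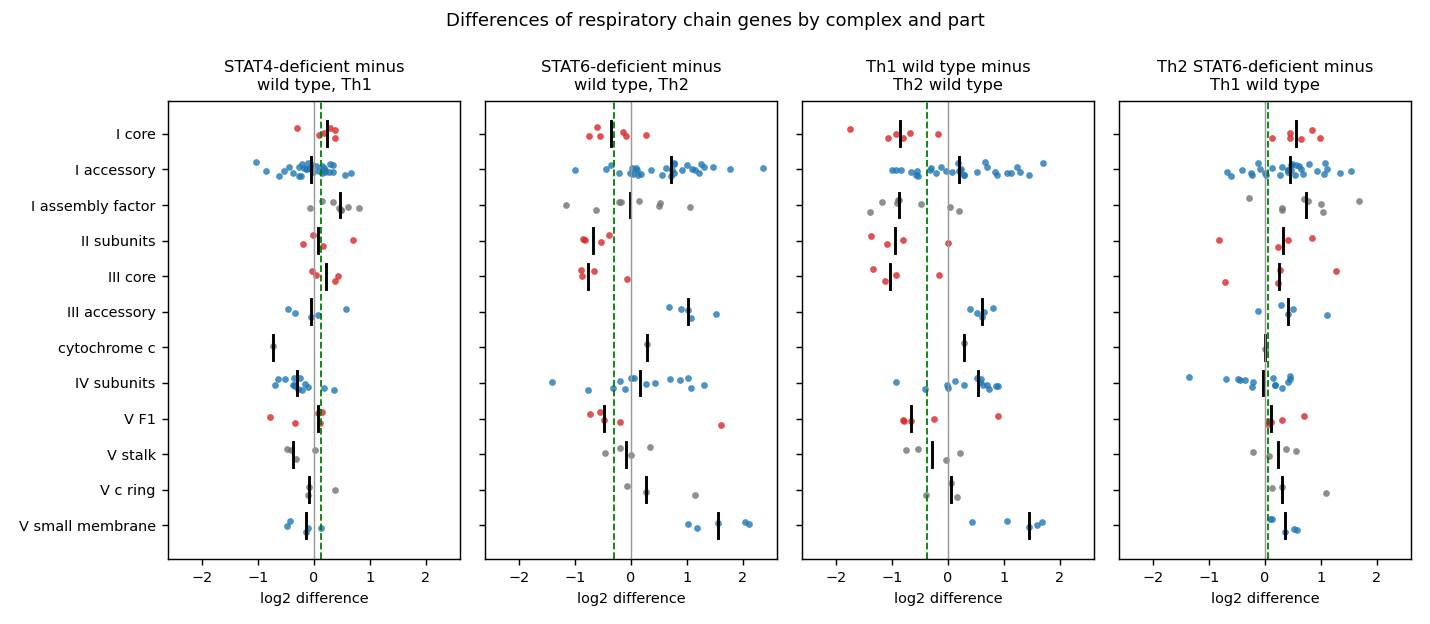
Each point is a gene at the level, placed by its log2 difference in the pair named above each panel, with genes in the same role on a line (red, core of complexes I to III, complex II and the F1 head of V; blue, accessory and small membrane subunits; grey, others), the black bar at the role's median and the green dashed line at the all-gene median. In the panels that use the Th2 wild-type array the red and blue medians lie on opposite sides, such as -1.03 for the core and 0.61 for the accessory subunits of complex III, while in the panel of Th2 STAT6-deficient minus Th1 wild type the complex IV median is -0.03 and the other red and blue medians are above 0.

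In complex I, the core subunits carry the flavin and iron-sulphur clusters that take electrons from NADH. Ndufv1, which binds NADH and the flavin, was at 9.61, 9.30, 11.36 and 10.61. It was highest in Th2 wild type, 3.35-fold above Th1 wild type, and its 3 probe sets at the level gave differences from -1.75 to -1.31. Ndufs1, the largest iron-sulphur subunit of the core, was at 9.57, 9.86, 10.64 and 10.03, again highest in Th2 wild type, with a difference of -1.07 between the wild types. Of the other core subunits, Ndufs3, Ndufs7 and Ndufv2 were below 0 in that pair by less than 2-fold (-0.93, -0.80 and -0.68), and Ndufs8 differed least (-0.19). The core median was -0.86 between the wild types, -0.36 for STAT6 loss and 0.23 for STAT4 loss, the last changing sign with median centring.

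Only some of the 30 accessory subunits of complex I parted from the core. Between the wild types 18 lay above 0 and 12 below, while all 6 core subunits lay below. For STAT6 loss 24 of 29 lay above 0, against 1 of 6 core subunits. Ndufa5, a subunit of the matrix arm, was at 9.75, 9.90, 8.45 and 10.81, lowest in Th2 wild type and highest without STAT6. Its difference for STAT6 loss, 2.36 or 5.14-fold, was larger than that of any other gene of the set, and its other probe set gave 2.84. Ndufa3, a small membrane subunit, was at 12.08, 12.27, 10.96 and 12.73, 3.41-fold higher without STAT6 and 1.12 higher in Th1 than Th2 wild type on the log2 scale. Ndufb2, also of the membrane arm, was at 10.60, 10.34, 9.55 and 11.02, 2.77-fold higher without STAT6, but another of its probe sets gave 0.08. Ndufb3, at 9.78, 10.33, 9.55 and 10.85, was close in both wild types and higher by 1.30 without STAT6. In all, 9 of 29 accessory subunits were called higher without STAT6 and 1 lower. The remaining calls were Ndufa2 (1.25), Ndufc1 (1.22), Ndufa7 (1.14), Ndufa13 (1.08) and Ndufa12 (1.001).

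Between the wild types 6 of 30 accessory subunits of complex I were called higher in Th1 and 1 higher in Th2. Ndufb4 was at 5.85, 5.30, 4.14 and 5.61, a difference of 1.70, and its Th1 wild-type value alone reached the level minimum. Ndufa6, an accessory subunit of the matrix arm, was at 11.82, 11.56, 10.38 and 11.14, 1.44 higher in Th1 than in Th2 wild type. Ndufb1, which was also lower without STAT4, was at 9.69, 8.65, 8.45 and 9.08, so that its Th1 wild-type value stood above the other arrays. Ndufa9, which sits beside the ubiquinone site, was the 1 called of the 12 that lay below 0 with the core. At 10.50, 10.48, 11.50 and 11.28 it was 1.002 higher in Th2. Ndufa10, another large accessory subunit, was at 11.06, 11.40, 11.98 and 10.98 and lower by 1.01 without STAT6, while its other probe set gave 0.54. The accessory median between the wild types was 0.20, and it changed sign between scalings (-0.18 with hybridization controls).

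The 8 assembly factors of complex I lay below 0 between the wild types for 6 of 8, and were highest in Th2 STAT6-deficient cells for 4 and in Th2 wild type for 3. Ndufaf1 was at 7.94, 8.28, 9.34 and 8.71 and Ndufaf6 at 6.98, 7.59, 8.16 and 8.66, each called higher in Th2 than Th1 wild type (differences of -1.40 and -1.17). These 2 of 8 were near the 25.4% of all genes called higher in Th2, and 7920 of 12111 genes lay below 0 in that pair. Ndufaf3 was at 8.39, 8.32, 9.26 and 8.10 and called lower without STAT6 (-1.16), while Ndufaf8, at 9.80, 10.29, 9.76 and 10.81, was called higher (1.05). Ndufaf2 had the largest upward difference of any member without STAT4, 0.81, from 7.10 to 7.91. The other 3 factors stayed under 2-fold in each pair: Ndufaf4 (11.66, 11.80, 11.46 and 11.98), Ndufaf5 (7.08, 7.57, 7.56 and 7.38) and Ndufaf7 (6.83, 7.27, 7.74 and 7.53). The factors' median was -0.88 between the wild types, -0.02 for STAT6 loss (changing sign between scalings) and 0.46 for STAT4 loss. In the last, 7 of 8 were above 0, against 7339 of 12608 genes.

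Complex II has 4 subunits and also serves the citric acid cycle. Sdha, the flavoprotein that oxidises succinate, was at 9.81, 10.51, 11.19 and 10.66, lowest in Th1 wild type and 2.59-fold higher in Th2 wild type. It was also 0.70 higher in Th1 cells without STAT4, the second largest upward difference of that pair. Sdhd, a membrane anchor, was at 10.26, 10.23, 11.35 and 10.49, 1.09 lower in Th1 than in Th2 wild type, though its other probe set gave 0.03. For STAT6 loss it was at -0.87. Sdhb, the iron-sulphur subunit, was at 11.34, 11.14, 12.15 and 11.76 and did not reach 2-fold. Sdhc, the other anchor, was at 9.40, 9.56, 9.39 and 8.58, lowest without STAT6. Its other probe set read 8.87, 8.88, 9.47 and 8.42, also lowest without STAT6 but highest in Th2 wild type, -0.61 between the wild types where the main one gave 0.01. For STAT6 loss that probe set gave -1.05, past 2-fold, and the main one -0.81. The 4 subunits had a median of -0.95 between the wild types and -0.67 for STAT6 loss.

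In complex III the core and accessory subunits had opposite medians. Cyc1, the cytochrome c1 haem protein, was at 10.56, 10.94, 11.89 and 11.83, high in both Th2 arrays and 2.52-fold above Th1 wild type in Th2 wild type. Uqcrc1, a large core protein, was at 11.28, 11.32, 12.40 and 11.50, high in Th2 wild type alone, with a difference of -1.12 between the wild types and -0.90 for STAT6 loss. Uqcrc2, its partner, was at 10.97, 11.40, 11.91 and 11.24, with the same array highest. Its other probe set read 10.72, 10.80, 11.02 and 11.05, highest without STAT6. The iron-sulphur protein Uqcrfs1 was at 12.21, 12.18, 12.38 and 11.50, lowest without STAT6 (-0.88). The core median was -1.03 between the wild types and -0.77 for STAT6 loss.

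All 5 accessory subunits of complex III were above 0 in both pairs, with medians of 0.61 between the wild types and 1.02 for STAT6 loss. Uqcr11, the smallest of the named Uqcr subunits, was at 9.78, 10.35, 9.39 and 10.90, 2.85-fold higher without STAT6. Uqcrq and Uqcr10 were called there as well, at 1.06 and 1.02, but another probe set of Uqcrq gave -0.65. Uqcrb (13.35, 13.30, 12.74 and 13.63) and Uqcrh (13.21, 12.75, 12.40 and 13.09) did not reach 2-fold, and both were lowest in Th2 wild type. Cycs, the mobile carrier cytochrome c that also triggers apoptosis when released, was at 12.64, 11.90, 12.36 and 12.64. It was lowest in STAT4-deficient Th1 cells, by 0.74, and all 3 of its probe sets at the level were below 0 in that pair.

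Of the 17 nuclear subunits of complex IV, 14 were at the level. By its main probe set none reached 2-fold between the wild types, where 11 of 14 were above 0 and the median was 0.54. Without STAT6, 3 were called higher: Cox6c (12.32, 12.49, 11.47 and 12.76; difference 1.30), Cox7a2 (13.18, 12.93, 12.29 and 13.35; 1.06) and Cox6b1 (1.02). These 3 were each lowest in Th2 wild type. Cox6b2, the form of that subunit known from testis, went the other way, at 6.94, 6.29, 7.87 and 6.45, highest in Th2 wild type and lower by 1.41 without STAT6. Without STAT4, 12 of 14 were below 0 with a median of -0.31, which became 0.08 with hybridization controls. Cox7c had the largest such difference, -0.70, from 9.26 to 8.55.

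Subunits of complex IV with tissue-specific forms were read form by form, each against itself, since levels of different probe sets are not comparable. The common Cox4i1 was at 13.45, 13.10, 13.17 and 13.22, and Cox4i2, known from lung and hypoxia, at 6.91, 6.40, 6.18 and 7.06. Cox6a1 was at 13.69, 13.59, 13.72 and 14.14, and the heart and muscle form Cox6a2 at 7.09, 6.92, 7.51 and 7.41. These forms differed by less than 2-fold in each of the 3 pairs. The muscle forms Cox7a1 and Cox8b stayed below the level on all arrays (3.72 to 4.81 and 5.01 to 5.47), as did Cox7b2 (3.43 to 3.81). Cox8a was at 12.14, 11.77, 11.51 and 11.78, and Cox8c at 7.91, 8.27, 7.79 and 7.46. Between the wild types the main probe set of Cox8a gave 0.63 and another bright one 0.71. A much dimmer one gave -1.09. Cox7a2l, which links complexes III and IV into a supercomplex, was at 12.67, 12.45, 12.10 and 11.32, lowest without STAT6. It was 0.77 below Th2 wild type there, while Cox7a2 was higher. Ndufa4, named for complex I but now placed in complex IV, was at 11.10, 11.27, 11.01 and 11.36, and its relative Ndufa4l2 at 6.68, 6.77, 6.47 and 6.45.

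**Figure D3:**
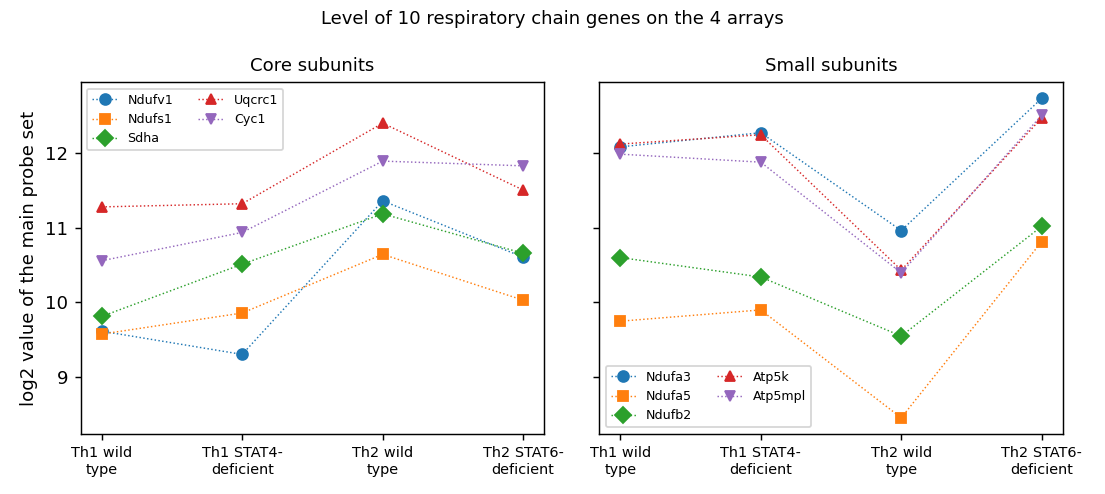
Log2 value of the main probe set on each of the 4 arrays for 5 core subunits (left) and 5 small subunits (right), 1 marker per gene and dotted lines only to guide the eye; no error can be shown with 1 array a group. All 5 core genes are highest in Th2 wild type, such as Ndufv1 at 11.36, and all 5 small subunits are lowest there, such as Ndufa5 at 8.45. The genes drawn were picked with their values known, and all were called between the wild types, so this follows largely from the choice. Members that ran otherwise, such as Ndufs8 and Sdhc of the core and the accessory subunits Ndufa9 and Ndufa10, are not drawn.

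ATP synthase showed the same division, with its small membrane subunits at the far end. These 5 small proteins belong to the part in the inner membrane, where several help the enzyme form dimers: Atp5j2 (subunit f), Atp5k (e), Atp5l (g), Atp5md (also called DAPIT) and Atp5mpl. Atp5k was at 12.12, 12.24, 10.43 and 12.47, so that Th2 wild type stood 4.11-fold below Th2 STAT6-deficient and 1.69 on the log2 scale below Th1 wild type. Its 3 probe sets ranged from 1.91 to 2.39 for STAT6 loss. Atp5mpl was at 11.98, 11.88, 10.39 and 12.51, 4.33-fold higher without STAT6. Atp5md was at 10.99, 10.52, 9.54 and 11.09, 2.92-fold higher. All 5 were called higher without STAT6 (median 1.55), Atp5j2 by the least (1.01, with another probe set at -0.19). Of the same 5, 4 were called higher in Th1 than Th2 wild type (median 1.45), all but Atp5j2. None differed by 2-fold without STAT4. Apart from Th2 wild type, Atp5k lay within 12.12 to 12.47 on the arrays.

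The F1 head makes the ATP. By main probe set, its large subunits Atp5a1 (12.45, 12.56, 13.11 and 12.56), Atp5b (12.47, 12.14, 13.27 and 12.78) and Atp5c1 (12.09, 12.23, 12.88 and 12.15) were each highest in Th2 wild type, by less than 2-fold. A much dimmer probe set each of Atp5a1 and Atp5c1 was highest without STAT6, at 7.92 and 7.32. Atp5e, the smallest subunit of the head, ran the other way at 11.77, 11.84, 10.87 and 12.48 and was 3.05-fold higher without STAT6. Atp5d, another small subunit of the head, was 0.78 lower without STAT4. The median of the 5 was -0.66 between the wild types and -0.49 for STAT6 loss. Of the 4 stalk subunits, which hold the head to the membrane, none was called, and their medians were -0.29 and -0.10, the second changing sign between scalings.

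The c ring, the rotor driven by protons, is encoded by 3 genes with the same mature protein. Atp5g1, the form known to vary with demand, was at 10.53, 10.43, 10.48 and 11.61, so that STAT6-deficient Th2 cells stood above the other arrays, by 1.13 over Th2 wild type. By their main probe sets, Atp5g2 (11.61, 11.99, 11.99 and 11.92) and Atp5g3 (13.47, 13.37, 13.32 and 13.59) differed by less than 2-fold in every pair. A much dimmer probe set of Atp5g2 gave -1.78 between the wild types, 1.16 for STAT4 loss and 0.78 for STAT6 loss. For STAT6-deficient Th2 minus wild-type Th1 it gave 2.55. Unlike the small membrane subunits, Atp5g1 was not low in Th2 wild type.

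The members' values spanned 3.43 to 14.14. Probe sets of the same member gene disagreed with an SD of 0.23 for STAT4 loss, 0.39 for STAT6 loss and 0.40 between the wild types, less than the 0.48, 0.65 and 0.71 over all genes with several probe sets. By sign they were no more alike for STAT6 loss: all probe sets at the level lay on the same side of 0 in 30 of 50 members, against 64.1% of all such genes.

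Related mitochondrial genes were read from lists chosen with earlier results of these data known. Of the 20 citric acid cycle and pyruvate dehydrogenase genes at the level, all lay below 0 between the wild types, with a median of -0.82 and 8 called higher in Th2. They included citrate synthase Cs (10.01, 10.19, 11.26 and 10.54), Suclg1, which makes succinate (-1.55), and Pdk3, a kinase that inhibits pyruvate dehydrogenase (-2.01). For STAT6 loss the median was -0.31 with 4 lower and 0 higher, and for STAT4 loss 0.29 with 2 higher. Of all genes 25.4% were called higher in Th2, 19.5% lower for STAT6 loss and 6.18% higher for STAT4 loss. The 4 of 20 lower for STAT6 loss were thus near the share of all genes. The all-gene medians were -0.37, -0.30 and 0.13, so for STAT6 loss this list lay at the level of all genes, and it came to -0.005 with quantile normalization and -0.02 with cyclic loess. The 76 mitochondrial ribosomal proteins had a median of -0.66 between the wild types (1 higher in Th1, 19 higher in Th2, the latter close to the 25.4% of all genes), 0.05 for STAT6 loss (2 higher, 3 lower) and 0.19 for STAT4 loss (1 and 1). The latter 2 medians changed sign between scalings.

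Among 31 assembly factors of other names, 13 were called higher in Th2 and 1 higher in Th1 wild type (median -0.71). The shares over all genes were 25.4% and 8.14%. Sco1, which supplies copper to complex IV, and Cox15, which makes its haem a, had differences of -1.92 and -1.89. The exception was Cox17, the small copper chaperone of complex IV, at 11.10, 10.75, 9.80 and 11.87, lowest in Th2 wild type and 2.07 higher without STAT6. For STAT6 loss 2 of the 31 were called higher, Cox17 and Cox16 (1.05), and 2 lower, against 7.01% and 19.5% of all genes. For STAT4 loss the shares of all genes were 6.18% higher and 5.34% lower. Without STAT4, 4 were called higher and 0 lower (median 0.32): Lrpprc, which stabilises mitochondrial mRNAs (1.44), Ecsit, an assembly factor of complex I (1.16), Cox10, of the haem a pathway (1.12), and Sdhaf1, of complex II (1.03).

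Of 18 regulators of mitochondrial gene expression, 4 were called higher in Th2 wild type and 1 higher in Th1, shares no larger than the 25.4% and 8.14% of all genes. Polg, the mitochondrial DNA polymerase, was at 8.13, 9.11, 11.06 and 9.82, a difference of -2.93 between the wild types and -1.24 for STAT6 loss. Tfb1m, a methylase of mitochondrial rRNA, and Polrmt, the mitochondrial RNA polymerase, had differences of -2.31 and -1.95. Myc, the growth regulator, was at 13.45, 12.88, 12.16 and 13.34, lowest in Th2 wild type and 1.18 higher without STAT6. Without STAT4 the coactivator Ppargc1b was higher by 1.98 (6.33, 8.31, 6.95 and 7.54) and Top1mt, the mitochondrial topoisomerase, by 1.33. Of the factors whose promoter letters were searched for, Nrf1, Gabpa and Yy1 stayed under 2-fold in the 3 pairs. Nrf1 was at 8.33, 8.38, 9.05 and 9.54, and Gabpa at 9.45, 9.19, 10.00 and 9.62. Yy1 was at 11.81, 10.98, 11.53 and 11.26.

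Single genes of the import and cytosolic ribosome lists also read lowest in Th2 wild type, named for the size of their differences. Tomm7, a small subunit of the outer membrane import pore, was at 11.11, 11.26, 9.05 and 11.22, and Timm8b, a small import chaperone, at 10.51, 10.68, 9.25 and 10.72. Both are among the 22 import and chaperone genes at the level, of which 4 were called higher and 0 lower without STAT6 (with Timm10 at 1.12 and Hspe1 at 1.13), and 2 higher in Th1 and 3 higher in Th2 between the wild types, where 11 lay above 0 and 11 below. Of 47 cytosolic ribosomal proteins, 6 were called higher without STAT6 and 0 lower, and 4 higher in Th1 wild type and 0 higher in Th2. Over all genes 7.01% were called higher and 19.5% lower without STAT6. Between the wild types 8.14% were higher in Th1 and 25.4% higher in Th2, so both lists' counts higher in Th1 were near the share of all genes. Rpl37 was at 10.98, 10.90, 8.78 and 10.70, and Rps29 at 14.94, 14.73, 13.69 and 14.94. Transcript lengths were not analysed here.

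The carriers and porins had 1 called of 8 without STAT6: Slc25a4, an ATP and ADP exchanger, lower by 1.26. Of 9 between the wild types 1 was called in each direction, and of 9 without STAT4 0. Of 17 glycolytic genes, 10 were called higher in Th2 and 0 higher in Th1 wild type (median -1.03), 5 were lower and 0 higher without STAT6 (median -0.85), and 4 were lower and 0 higher without STAT4 (median -0.38, or 0.01 with hybridization controls). The shares over all genes were 25.4% higher in Th2 wild type, 19.5% lower without STAT6 and 5.34% lower without STAT4. The only mitochondrially encoded chain gene measured, ND5 of complex I, was at 13.72, 13.20, 13.62 and 13.61 and lay under 2-fold in each pair.

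**Figure D4:**
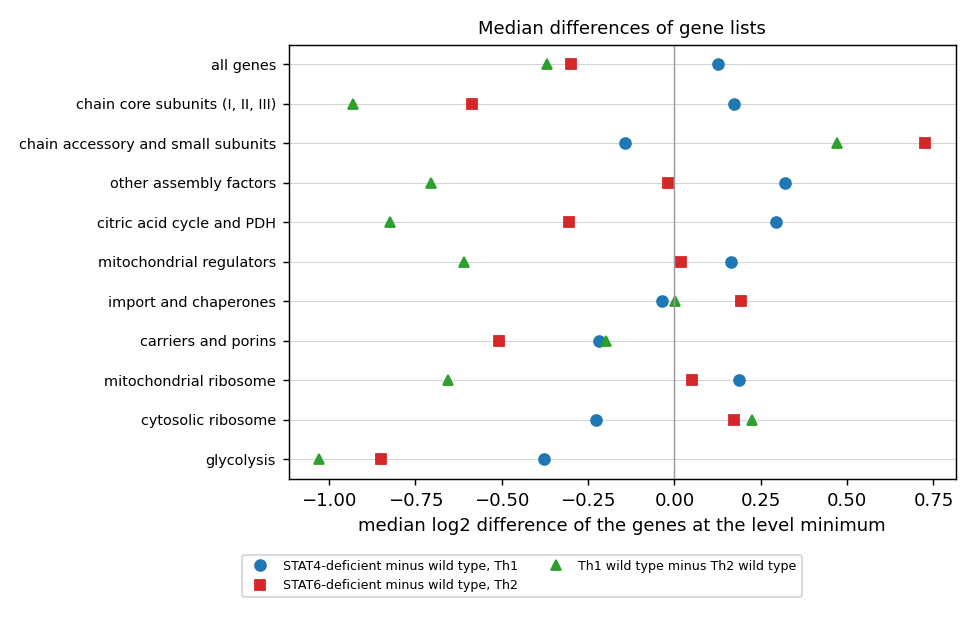
Each marker is the median log2 difference of a gene list, counting its genes at the level, for 3 pairs of arrays (circles, STAT4 loss in Th1; squares, STAT6 loss in Th2; triangles, Th1 minus Th2 wild type), with all genes in the top line. All genes lie left of 0 for both pairs that use Th2 wild type, at -0.30 and -0.37; the core subunits and glycolysis lie further left, while the accessory and small subunits lie right of 0 at 0.73 and 0.47.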

How the data were processed

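Expression was measured in total RNA with biotin label on Affymetrix mouse expression arrays, 1 array in each of the 4 groups. The authors deposited log2 values per probe set, made with RMA per the submitters' processing notes; its version, background setting and whether the arrays were normalized together are not given in the sources used here. No genome build is given for the values. The values were used as deposited. Of 45101 probe sets, 64 controls were set aside; 34945 carry 1 gene symbol in the platform annotation, 932 several and 9160 none, and 34741 of those with 1 symbol matched RefSeq. No member symbol needed an update.

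Each gene was represented by its probe set with the highest mean, and differences were called at 2-fold with the brighter array at 5.82 or more. Named genes were, per pair, up to 12 called members a direction by size, filled up to 6 by uncalled members, the isoform sets, the brightest and dimmest subunits (not ranked in the text, since levels of different probe sets are not comparable), the assembly factors, and up to 4 called genes a list; the F1, core, STAT, ribosomal and marker genes named beyond these were chosen after their values were seen. The members and lists were chosen with earlier results of these data known. Without replicates no error or p-value is given, and precision is limited by 1 array a group. Other scalings (median centring, quantile, cyclic loess, hybridization controls), levels, probe set rules and 1.5-fold were tried. Analyses used R 4.3.3, limma 3.58.1, Python 3.11.15, pandas 2.3.3 and numpy 2.4.6, and the counting of calls was tested on simulated data.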

Additional observations from a re-analysis of the deposited data

How the results depend on the processing

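Of the members' medians and counts of calls in the 3 pairs, 45 values under other settings stayed close to the reported one and 12 moved. For STAT4 loss the members' median of -0.05 became -0.29 with median centring, 0.22 with quantile normalization, 0.13 with cyclic loess and 0.35 with hybridization controls; the all-gene medians were then -0.15, 0.07, 0.04 and 0.53. Its 1 call became 3 lower with median centring, 0 with quantile normalization, 3 higher with hybridization controls and 11 at 1.5-fold (4 higher, 7 lower; 31.8% of all genes). For STAT6 loss the 26 calls became 47 at 1.5-fold (34 higher, 13 lower; 48.7% of all genes). Between the wild types the median became -0.35 with hybridization controls, where the all-gene median was -0.78, and the 19 calls became 29 (4 higher in Th1, 25 higher in Th2); at 1.5-fold there were 49 (24 and 25; 56.8% of all genes). The cause of these shifts was not tested.

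Of the 26 genes called for STAT6 loss, 24 were called with cyclic loess, 16 with hybridization controls, 25 with median centring and 24 with quantile normalization; of the 19 between the wild types, 12, 14, 19 and 12. None changed sign under these scalings. With the mean of a gene's probe sets 18 were called for STAT6 loss (16 higher, 2 lower). No paired analysis was possible because each group has 1 array and the labels give no replicate numbers. With 1 array a group, array and condition cannot be told apart.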
